A study of Caenorhabditis elegans with 2 samples.

Results

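The genes described here make piRNA precursors in Caenorhabditis elegans and prepare them for maturation. There are 10 of them among 19973 protein-coding genes of the nuclear chromosomes. With earlier results of the data known, they were listed by name from what their proteins do. Of these, 4 encode the piRNA transcription complex (prde-1, snpc-4, tofu-4 and tofu-5) and 6 encode PETISCO and its adaptors (pid-3, tofu-6, erh-2, ife-3, pid-1 and tost-1). The data were peak lists of chromatin immunoprecipitation with sequencing (ChIP-seq) for ATTF-3, a protein named for the AT-hook, a small DNA-binding element. There was 1 group, with 2 biological replicates from separate biosamples of the same strain. Both replicates were whole worms of strain RW12296, genotype st12296[attf-3::TY1::EGFP::3xFLAG] III, in which a CRISPR insertion at attf-3 fuses the protein to EGFP, TY1 and FLAG tags, and an antibody against GFP pulled down the chromatin. The worms were young adults of 63 hours, grown from L1 larvae synchronised by starvation after bleaching. Every worm carried the tagged allele and no strain without the tag is among the samples, so no condition could be compared with another. A control alignment named in the file descriptions was not analysed here. Whole worms mix germ line and soma, so a peak could not be assigned to a tissue.

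piRNAs are short RNAs of the germ line that guide the Argonaute PRG-1 to foreign transcripts such as those of transposons. In C. elegans each piRNA gene is transcribed by itself into a short capped precursor, and PRDE-1, SNPC-4, TOFU-4 and TOFU-5 act together at these genes to promote that transcription. PETISCO, a complex of PID-3, ERH-2, TOFU-6 and IFE-3, binds the capped precursors before the nuclease PUCH trims their 5' ends, and its adaptor sets its task: PID-1 directs it to piRNA precursors and TOST-1 to another function, needed in embryos.

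A summit of ATTF-3 lay at the promoters of 1 gene of each complex, tofu-5 and tofu-6. A promoter was counted as bound when a peak summit lay within 500 bp of the annotated 5' end of the gene. In the joint list, the conservative list of 1737 peaks that rests on both replicates, 2 of the 10 genes were bound (95% Wilson interval 5.67% to 51.0%), beside 6.07% of all protein-coding genes (1212 of 19973). The interval covers counting over genes only and holds the share of all genes. By complex, 1 of 4 genes of the transcription complex and 1 of 6 of PETISCO and its adaptors were bound. In the list made from pooled reads the same 2 genes were bound, beside 6.01% of all genes. In each replicate's own thresholded list only tofu-5 was bound, beside 4.03% of all genes in replicate 1 and 4.40% in replicate 2. Bound in both of those lists was 1 of 10 members, beside 3.33% of all genes. No member had a summit inside its gene body in the joint list, where 2.36% of all genes had one.

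**Figure D1:**
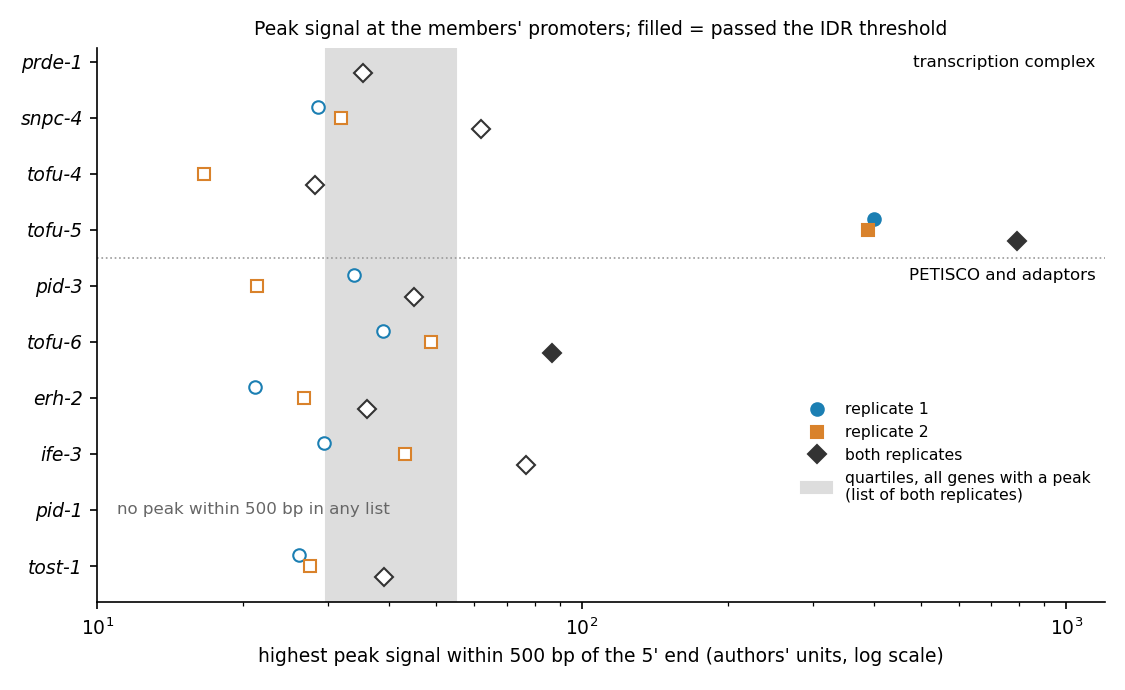
The highest peak signal within 500 bp of each gene's 5' end (x axis, authors' units, log scale) is shown for replicate 1, replicate 2 and the lists of both replicates. Filled symbols are peaks that passed the threshold on the irreproducible discovery rate (IDR), and open symbols are ranked peaks that did not. Grey marks the quartiles over all genes with a peak in the ranked list of both replicates only. Those of the replicates' own ranked lists were lower, 18.52 to 34.13 in replicate 1 and 20.42 to 36.17 in replicate 2. The values of tofu-5 stand far to the right at 401.20, 389.79 and 791.86, tofu-6 has 1 filled symbol at 86.85, and pid-1 has no peak in its window.

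In the transcription complex, tofu-5 (WBGene00012167, I:7069440-7070665, plus strand) had the strongest peak of the 10 genes. TOFU-5 takes its name from a screen for genes whose loss leaves too few piRNAs. The joint peak spans I:7069163-7069449 in ce11, with its summit 132 bp upstream of the 5' end, between genes. Its signal, in the authors' units of unstated scale, was 401.20 in replicate 1, where it ranked 116 of 964 peaks, and 389.79 in replicate 2, where it ranked 137 of 1063. The replicates gave a mean of 395.49 ± 8.07 (SD, n = 2), with their summits 11 bp apart. In the joint list the signal was 791.86, rank 127 of 1737, with the IDR at 1.00e-05, the lowest value the deposited column holds. Of all protein-coding genes, 0.816% (163) had a higher peak within 500 bp in the joint ranked list.

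The tofu-5 promoter faces another gene. The 5' end of nuo-6, which encodes a subunit of mitochondrial complex I, lies 253 bp away on the opposite strand, and the summit was 122 bp upstream of it, so it is nearer to nuo-6 than to tofu-5. Of all genes with such a divergent partner within 500 bp, 21.2% (390 of 1842) were bound. The complex has 1 other such gene, tofu-4, whose partner is htp-3, a component of the meiotic chromosome axis, with a gap of 432 bp. Neither gene of that pair was bound. The third member with a divergent partner, tost-1, faces arx-6, a subunit of the Arp2/3 complex, across 346 bp, and neither of them was bound. So 1 of 3 members with a divergent partner was bound.

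The remaining 3 genes of the transcription complex had no joint peak near them. For prde-1 (WBGene00008995, V:15538244-15547086, plus strand) the nearest joint summit was 13601 bp downstream of the 5' end and past the 3' end. For tofu-4 (WBGene00019013, I:4824904-4826639, minus strand) it was 36632 bp away. For snpc-4 (WBGene00001568, I:8962322-8966129, plus strand), which encodes a subunit of the snRNA-activating complex SNAPc, it was 88999 bp away, and 83.3% of all protein-coding genes had a nearer one. All 3 had weaker peaks in the joint ranked list, which holds 71287 peaks before the threshold and has one within 500 bp of 55.6% of all genes. The signals there were 61.97 for snpc-4 with an IDR of 0.228, 35.35 for prde-1 with an IDR of 0.551 and 28.18 for tofu-4 with an IDR of 0.892. Genes with a ranked peak had a median signal of 39.79 (quartiles 29.60 to 55.05), so snpc-4 was above the upper quartile and tofu-4 below the lower.

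Of these 3 genes, snpc-4 alone had a ranked peak within 500 bp in both replicates. It lay inside the gene, 428 bp from the 5' end with a signal of 25.35 in replicate 1 and 468 bp from it with 31.84 in replicate 2, a mean of 28.59 ± 4.59 (SD, n = 2) from summits 40 bp apart. Replicate 1 had a second peak within 500 bp, 344 bp upstream, which at 28.54 was slightly higher. tofu-4 had a ranked peak in replicate 2 alone, at 16.57, and prde-1 had none within 500 bp in either replicate's own list. Thus 2 of the 4 genes had a ranked peak in replicate 1 and 3 of 4 in replicate 2. Over all 10 members the counts were 9 in the joint ranked list, 7 in replicate 1 and 8 in replicate 2, beside 42.3% of all genes in replicate 1 and 40.7% in replicate 2. A ranked peak near a 5' end is thus common among all genes.

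**Figure D2:**
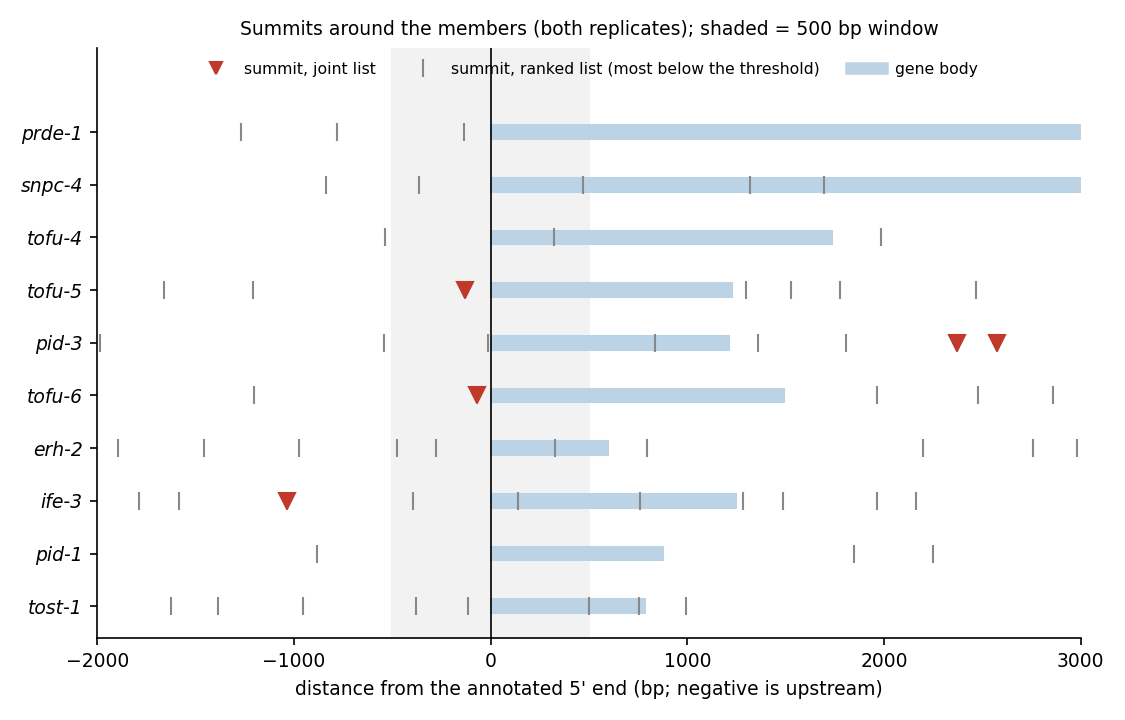
Summits of both replicates are placed by their distance from each gene's 5' end (x axis, bp, negative upstream), with gene bodies as blue bars, joint summits as red triangles and ranked summits as grey ticks. Joint summits fall in the shaded window of 500 bp for tofu-5 and tofu-6 only, and the one upstream of ife-3 and the pair past pid-3 fall outside it.

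Within PETISCO, the gene with a bound promoter was tofu-6 (WBGene00017132, II:5421248-5422737, plus strand), which encodes a protein with Tudor and RNA-recognition domains. Its joint peak, chrII:5421019-5421338, had a summit 69 bp upstream of the 5' end, 86 bp past the end of the preceding gene EEED8.15 and inside the gap of 154 bp between them. The sequences shown are 101 bp centred on a summit, read from the RefSeq copy of ce11 on the gene's own strand: the tofu-6 summit (chrII:5421129-5421229, plus), the summit of tofu-2 (chrV:7051282-7051382, minus), which encodes a PUCH subunit and has the strongest peak among the other biogenesis genes, both ife-3 peaks (chrV:8814-8914 and chrV:8173-8273, minus) and the ranked peak of tost-1 (chrIII:4878377-4878477, minus). Capitals mark CGCG.
tofu-6, joint: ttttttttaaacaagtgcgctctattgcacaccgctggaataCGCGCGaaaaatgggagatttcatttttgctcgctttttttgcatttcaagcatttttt
tofu-2, joint: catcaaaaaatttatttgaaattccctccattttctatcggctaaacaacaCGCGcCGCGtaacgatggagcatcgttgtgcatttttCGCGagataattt
ife-3, joint, 1036 bp upstream: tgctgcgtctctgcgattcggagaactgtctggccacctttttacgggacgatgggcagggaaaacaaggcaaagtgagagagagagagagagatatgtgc
ife-3, ranked, 395 bp upstream: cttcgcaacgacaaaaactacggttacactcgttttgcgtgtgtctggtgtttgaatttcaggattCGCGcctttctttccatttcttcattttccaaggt
tost-1, ranked, 116 bp upstream: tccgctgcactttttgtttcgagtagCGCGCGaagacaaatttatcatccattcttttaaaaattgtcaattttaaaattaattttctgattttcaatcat

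CGCG was counted after these windows had been read, so its count describes them and tests nothing. It stands in 2 overlapping copies in the tofu-6 and tost-1 windows, in 3 copies at tofu-2 and in 1 in the ranked window of ife-3. The joint window of ife-3 has none, and instead holds GAGAGA. The tetramer was present in 49.5% of joint windows, in 13.7% of joint ranked windows and in 11.7% of windows of equal length centred 100 bp upstream of every protein-coding 5' end. Among the 9 members with a peak within 500 bp, 6 windows held it: those of tofu-6, ife-3, tost-1, prde-1, snpc-4 and tofu-4. The tofu-5 window, from the strongest of these peaks, did not.

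Other letters searched on both strands gave counts as follows. AATT, a run of A and T of the kind an AT-hook can bind, was in 7 of the 9 windows, beside 54.7% of joint, 64.3% of joint ranked and 74.7% of upstream windows. TTTTTT was in 3 of 9, beside 25.8% of joint, 28.8% of joint ranked and 46.9% of upstream windows. GTTTC, the core of the motif upstream of piRNA genes, was in 4 of 9, beside 24.2%, 25.5% and 28.7% in the same order. GAGAGA (244 of 1737 joint windows) and TTCCCGC (58 of 1737) were in none. The members' windows ranged from 55.4% to 70.3% A plus T, with a median of 59.4%. Joint windows had a median of 53.5%, joint ranked windows of 60.4% and upstream windows of 66.3%. Of the 9 members' peaks, 7 are ranked peaks that did not pass the threshold, so the ranked windows are the nearest comparison for those. A match of letters is a description and shows no binding.

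The tofu-6 peak was weaker than that of tofu-5 and passed the threshold only when the replicates were combined. Its joint signal was 86.85, rank 1471 of 1737, with an IDR of 0.00677 against the threshold of 0.01, and its IDR in the pooled list was 0.00599. In the replicates' own ranked lists it was 38.93 in replicate 1, with an IDR of 0.834, and 48.79 in replicate 2, with an IDR of 0.774. The mean was 43.86 ± 6.97 (SD, n = 2), and the 2 summits were 1 bp apart. The position therefore repeated closely, while neither replicate passed the threshold alone. The signal of tofu-5 was 9.12 times that of tofu-6 in the joint list, 10.3 times in replicate 1 and 7.99 times in replicate 2. The peak width of tofu-6, 320 bp, is shared by 77.2% of joint peaks.

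Of the members, 5 stand second or later in a run of genes on one strand with gaps of at most 500 bp: prde-1, pid-3, tofu-6, erh-2 and pid-1. Such spacing is typical of C. elegans operons, whose genes share a promoter upstream of the first gene, but the runs are inferred from gaps and no operon annotation was used. Of these 5 genes, 1 was bound at its own 5' end (tofu-6), beside 4.94% of all such genes (199 of 4030), while first and single genes were bound at 6.35%. None of the first genes of the 5 runs, F21A3.4, ctn-1, EEED8.15, smc-4 and nhx-2, had a joint summit within 500 bp of its own 5' end. The tofu-6 summit lay 1950 bp from the 5' end of EEED8.15. smc-4, which leads the run of erh-2, encodes a condensin subunit.

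ife-3 (WBGene00002061, V:6584-7828, minus strand) encodes an eIF4E homolog, a cap-binding protein, and had the highest signal of the members that were not bound. In the joint ranked list its peak 395 bp upstream had a signal of 76.68 and an IDR of 0.0786, which misses the threshold. In the pooled ranked list its IDR was 0.0521. The replicates gave 29.31 and 43.15, a mean of 36.23 ± 9.79 (SD, n = 2), with summits 21 bp apart. A joint peak did lie farther upstream, at V:8704-9023, 1036 bp from the 5' end, with a signal of 94.53 and rank 1311. That summit was 125 bp upstream of the next gene, B0348.10, which lies on the same strand 746 bp from ife-3. It was in neither replicate's own thresholded list.

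The other PETISCO genes had weaker signals. pid-3 (WBGene00021270, I:2620650-2621859, plus strand), which encodes an RNA-recognition protein, had 45.01 in the joint ranked list with an IDR of 0.700, and the replicates gave 33.94 and 21.33 from summits 137 bp apart. Its nearest joint summit was 2372 bp downstream of its 5' end, in the body of the next gene, Y23H5A.2, with a signal of 84.32. erh-2 (WBGene00009444, III:4593231-4593827, plus strand), a homolog of the fly gene enhancer of rudimentary, had 36.04 with an IDR of 0.734 from a summit at -478 bp, upstream of the gene. That summit lies within the preceding gene, smc-4, which ends 106 bp before erh-2. The highest peaks of erh-2 in the replicates lay on the other side of the 5' end, so they are not the peak of the joint value. They were at 469 bp downstream with 21.21 in replicate 1 and at 232 bp downstream with 26.67 in replicate 2. Replicate 2 also had a slightly lower ranked peak upstream of erh-2, at -362 bp with 26.27, which overlaps the joint ranked peak. Both genes had joint ranked signals between the quartiles of all genes with a peak.

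Neither adaptor gene was bound. pid-1 (WBGene00017549, II:7689681-7690556, minus strand) was the only member with no peak within 500 bp in any of the 8 deposited lists, and its nearest joint summit was 18217 bp upstream. tost-1 (WBGene00016449, III:4877526-4878311, minus strand) had 39.07 in the joint ranked list with an IDR of 0.269. The replicates gave 26.11, from a summit 132 bp upstream, and 27.44, from one 381 bp upstream, which the joint ranked list holds as separate peaks. Its nearest joint summit was 21625 bp upstream.

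Distance to the nearest joint summit spread widely over the members. In order it was 69 bp for tofu-6, 132 for tofu-5, 1036 for ife-3, 2372 for pid-3, 13601 for prde-1, 18217 for pid-1, 21625 for tost-1, 36632 for tofu-4, 41035 for erh-2 and 88999 for snpc-4. The median was 15909 bp, beside 26657 bp over all protein-coding genes. A nearer summit was found for 0.961% of all genes at tofu-6, 1.86% at tofu-5, 7.85% at ife-3 and 11.3% at pid-3. The other 6 members lay between 33.6% and 83.3%. Several distances changed with the list. For pid-3 the nearest summit was 19185 bp away in the pooled list, 19181 bp in replicate 1 and 19185 bp in replicate 2. In replicates 1 and 2 it was 93041 and 45735 bp for ife-3, and 47767 and 5888 bp for tofu-6. erh-2 had a nearer one in the pooled list (794 bp) and replicate 2 (837 bp), and a farther one in replicate 1 (104121 bp). tofu-5 stayed at 131 and 142 bp in the replicates.

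**Figure D3:**
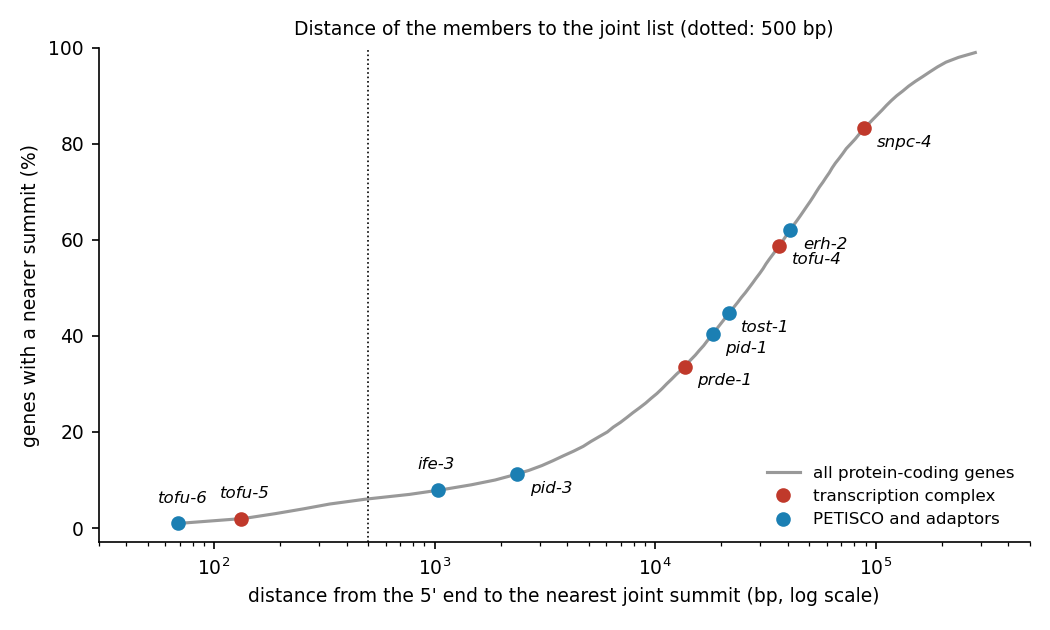
The distance from each member's 5' end to the nearest joint summit (bp, log scale) is shown with the distribution over all protein-coding genes. tofu-6 at 69 bp and tofu-5 at 132 bp lie inside the window of 500 bp, and the other 8 members run from 1036 to 88999 bp.

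Other genes of piRNA biogenesis, 16 matched of 18 listed, included 3 with a joint summit (18.8%, 6.59 to 43.0), again beside 6.07% of all genes. The strongest was tofu-2, a subunit of PUCH, at 419.84, rank 239, with 214.63 and 199.08 in the replicates (206.85 ± 11.0, SD, n = 2). The same summit lay 383 bp upstream of spig-1 on the other strand. snpc-3.4, named for similarity to a SNAPc subunit, had 152.33, with 50.84 and 87.04 in the replicates (68.94 ± 25.6), of which only the second passed that replicate's threshold. tofu-1, another PUCH subunit, had 83.50 at 295 bp upstream, but its summit was 50 bp from the 5' end of ruvb-1, an AAA ATPase. In the pooled list tofu-1 was not bound and snpc-3.1 was, with a signal of 103.25. snpc-3.1 also passed the threshold in replicate 1, at 68.78. tofu-1 had a peak that passed in replicate 2, at 35.38. Its summit was at -10 bp from the 5' end, away from the joint summit 295 bp upstream, so it does not repeat the position of the joint peak. attf-6, an AT-hook gene linked to piRNA transcription, was not bound, and its nearest joint summit was 33722 bp upstream.

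**Figure D4:**
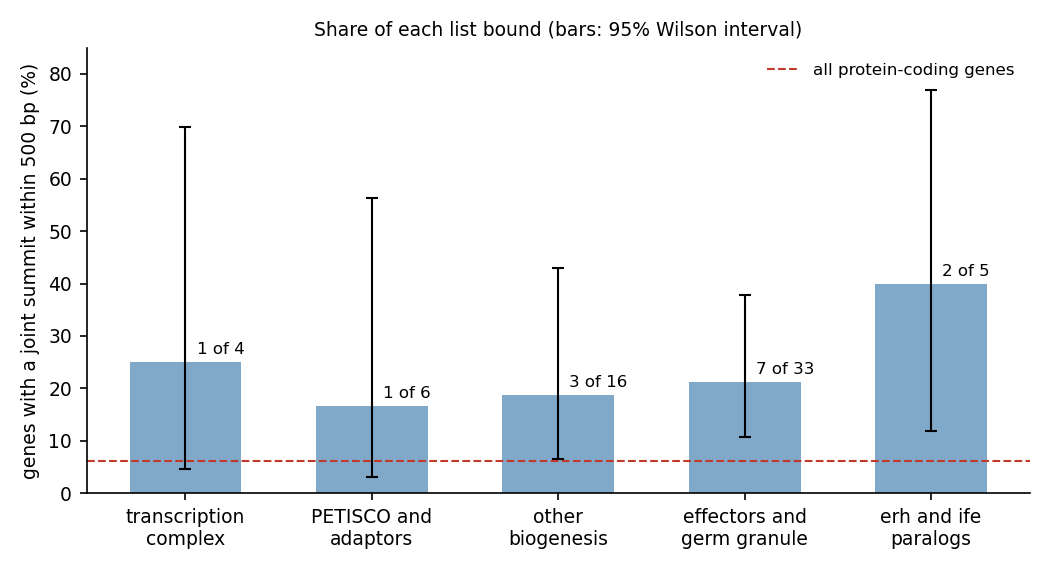
The share of genes bound in the joint list (percent, with 95% Wilson intervals over genes) is shown for each gene list, with the share of all protein-coding genes as a line. The shares run from 16.7% for PETISCO and its adaptors to 40.0% for the erh and ife paralogs, and the intervals of the small lists are wide.

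Among effector and germ granule silencing genes, 33 matched of 37 listed, 7 were bound (21.2%, 10.7 to 37.8), beside 6.07% of all genes. All these lists were chosen with earlier results of the data known, so their intervals are no test against the share of all genes. wago-4, a germline Argonaute, had the highest signal of the effector list, 2185.90 at rank 9, with 1132.35 and 1055.32 in the replicates (1093.84 ± 54.5, SD, n = 2). Its summit lay 206 bp from wago-4 and 335 bp from F58G1.2 on the other strand. mut-15, a mutator focus component, had 387.83 and shared its summit with fib-1, which encodes fibrillarin. ekl-1, a Tudor protein that works with RNA-dependent RNA polymerases, had 209.34 with prpf-4 on the other side. simr-1, a Tudor protein of a germ granule compartment, had 159.45 with C06A5.3 on the other side. For mut-15, ekl-1 and simr-1 the summit was nearer to the partner. It was 87 bp from fib-1 and 233 bp from mut-15, and 299 bp from prpf-4 and 464 bp from ekl-1. C06A5.3 was 124 bp from its shared summit, and simr-1 was 493 bp from it. glh-1, a Vasa-like helicase, had 118.28 and ego-1, an RNA-dependent RNA polymerase, 95.10. The last, pid-5, had 85.90 and shared its summit with coh-4, which encodes a cohesin kleisin. That summit was nearer to pid-5, at 78 bp, than to coh-4, at 164 bp. The pid-5 peak was in the joint list, but not in the pooled list or in either replicate's own thresholded list. ego-1 passed the threshold in replicate 1 and not in replicate 2. prg-1, the Argonaute that carries piRNAs, was not bound, with its nearest joint summit 6456 bp downstream.

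erh-2 and ife-3, which were not bound, have paralogs that were. Of 5 paralogs, 2 were bound (40.0%, 11.8 to 76.9), beside 6.07% of all genes, and this list too was chosen with earlier results known. erh-1 had a summit 23 bp upstream with a signal of 113.64, shared with lpd-9 at 141 bp, and it passed the threshold in replicate 2 (67.59) and not in replicate 1. ife-5 had one 168 bp upstream with 88.30 that passed in neither replicate alone. ife-1, ife-2 and ife-4 were not bound. The difference between paralogs and members was not tested, and erh-1 and ife-5 rank at 979 and 1438 of 1737, in the lower part of the joint list.

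**Figure D5:**
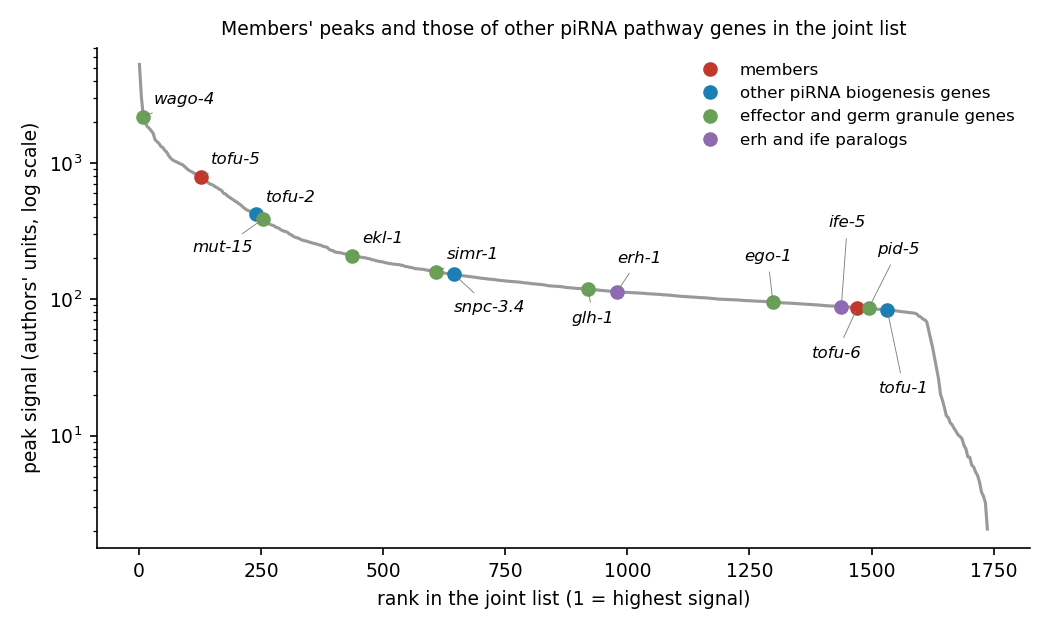
Joint peaks are ordered by signal (x axis, rank from the highest; y axis, authors' units, log scale), with members in red and genes of the other piRNA lists in the remaining colours. tofu-5 stands at rank 127 with 791.86, near the head of the curve, and tofu-6 at rank 1471 with 86.85 stands beside ife-5 and pid-5.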

How the data were processed

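The data were ChIP-seq peak lists from 1 group of 2 biological replicates, grouped and numbered by the labels. Sonicated chromatin and the assembly ce11 are stated per the labels. Which aligner and which caller made the peaks is not given in the sources used here. In all, 8 lists were deposited by the authors, ranked by IDR (how consistently 2 rankings order a peak) or kept at a threshold of 0.01, judged from the values. Each deposited peak has a signal of unstated scale, a scaled IDR score capped at 1000 and a summit offset. A further column of the deposited ranked lists holds the global IDR as −log10. Each ranked list of the series has 8 columns with no replicate name, which were not used. With no counts deposited, depth is unknown.

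Genes came from Ensembl release 115 (WBcel235, the same assembly as ce11). Coordinates are 1-based. Distances, counts and windows were computed in Python 3.11 with pandas 2.3.3. Only the signed distance and the 500 bp rule were checked on simulated summits. The counts over lists and the sequence windows were not checked in this way. The members and lists were chosen with earlier results of these data known, so no test was run. Named were all members, genes sharing their summits or next to them, bound genes of the other lists (up to 6 by signal) and all paralogs. pid-5 and snpc-3.1 were named after their values were seen. Of the lists, tofu-3, snpc-3.3, prg-2, wago-3, mut-8 and cde-1 matched no protein-coding gene symbol.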

Additional observations from a re-analysis of the deposited data

How the results depend on the processing

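The peak at tofu-5 was called under each alternative but one, and that at tofu-6 depended on the list. In either replicate's list alone (replicate 1 or replicate 2), the members bound numbered 1 to 1 (tofu-5), PETISCO genes 0 to 0 and paralogs 0 to 1, with 4.03% to 4.40% of all genes. Among the 868 strongest joint peaks, 1 member, 0 PETISCO genes, 4 effector genes and 0 paralogs were bound, beside 3.93% of all genes. At an IDR of at most 0.001, 1 member, 0 PETISCO genes and 1 paralog were bound, beside 4.22% of all genes. In the joint ranked list the counts were 9 members, 4 of the transcription complex, 5 of PETISCO, 13 biogenesis genes, 29 effector genes and 5 paralogs, beside 55.6% of all genes. With a window of 250 bp, 4 effector genes and 3.90% of all genes were bound. When a peak went only to its nearest gene, 1 member (tofu-6), 0 genes of the transcription complex and 4 effector genes were bound, beside 4.67% of all genes; tofu-5 is lost by construction, since nuo-6 is nearer to the tofu-5 summit. Measured from the first gene of a run, 1 member (tofu-5), 0 PETISCO genes and 5 biogenesis genes were bound, beside 7.77% of all genes. The pooled list, a window of 1000 bp, whole-peak overlap and the 5' end of any transcript kept both member calls. The other causes were not tested. Depth is unknown, so a promoter without a peak is not shown to be free of ATTF-3. No paired analysis was possible because there is 1 group and no test.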

Other observations

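Of the 21 genes next to the members or leading their runs, 2 had a joint summit within 500 bp of their 5' end (9.52%, beside 6.07% of all protein-coding genes): nuo-6, beside tofu-5, and B0348.10, upstream of ife-3. The summit at nuo-6 is the tofu-5 summit itself, so this call is not separate from the member call. htp-3, arx-6, smc-4 and apc-11, which encodes a subunit of the anaphase-promoting complex, had none.

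Past the 3' end of erh-2, a peak passed the threshold in the pooled list, 198 bp beyond the gene with a signal of 79.90 at rank 1558 of 1700. It passed in replicate 2 as well, 241 bp beyond the gene with a signal of 55.38 at rank 1005 of 1063, and was neither in the list of replicate 1 nor in the joint list. The joint list holds 2 overlapping peaks in the region downstream of pid-3, with signals of 84.32 and 9.50.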
